A study of Mus musculus with 768 samples.

Results

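Amino acids enter and leave mammary cells through carriers of the solute carrier (Slc) group, and 59 of the 23997 gene names in the deposited tables belong to 7 families that carry them: Slc1, Slc3, Slc6, Slc7, Slc36, Slc38 and Slc43. Their rows were matched by name alone, but the families were chosen with earlier results of these data known. Of the 59, 26 reached 5 CPM (reads per 1000000 reads of the summed cells) in at least 1 of 2 plates. By family these were 4 of 7 Slc1 genes, 1 of 2 Slc3 genes, 4 of 17 Slc6 genes, 7 of 15 Slc7 genes, 2 of 4 Slc36 genes, 6 of 11 Slc38 genes and 2 of 3 Slc43 genes. The Slc6 names include carriers of creatine, taurine and monoamines, which are built like the amino acid carriers.

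Luminal cells of the mammary gland make milk protein and draw the amino acids for it from the blood. Slc1, Slc38 and most Slc6 carriers use the sodium gradient to concentrate amino acids. Many Slc7 proteins are light chains that exchange amino acids only once joined to a heavy chain, Slc3a2 or Slc3a1, and some carriers on the lysosome report amino acid supply to the growth kinase mTORC1.

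Reporter-positive single cells were sorted from dissociated inguinal mammary glands of C57BL/6 mice into 1 plate of 384 wells per genotype and sequenced by Smart-Seq2, which reads whole transcripts. WAP-CRE, present in both genotypes, expresses Cre recombinase from a milk protein promoter that alveolar luminal cells use in pregnancy and lactation. The control plate had the genotype WAP-CRE; R26-tdTomato, a red reporter, and the other WAP-CRE; R26-N1ICD-EGFP, the active intracellular part of the receptor Notch1 with a green reporter. The series describes a lactation history of 3 to 4 months, gives no age and names no animal, so each plate is 1 sample without replicates, and the effects of genotype, of plate and of reporter cannot be told apart.

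In all, 617 cells had at least 50000 reads and 1000 genes, from 86.98% of control wells and 73.7% of N1ICD-EGFP wells, with medians of 241888 and 348469 reads. Clusters made without the 59 genes were named from markers. The luminal progenitor/secretory-like class (luminal class from here on) held 71.6% (Clopper-Pearson 95% interval 66.4 to 76.3) of control cells and 80.6% (75.5 to 85.01) of N1ICD-EGFP cells. These intervals leave out the choice of classing. In every other clustering tried the N1ICD-EGFP luminal class held fewer cells, while the control luminal class stayed near its size. With cells classed by markers alone both were smaller, and the N1ICD-EGFP luminal class lost far more of its cells than the control one. The N1ICD-EGFP share is thus less certain than its interval. The hormone-sensing luminal-like class held 64 control cells (19.2%) and 7 N1ICD-EGFP cells (2.47%), the immune-like class 24 and 48, and 7 control cells were basal-like. All 15 immune markers reached 5 CPM in the immune-like class of both plates, and 9 and 10 of the 10 hormone-sensing markers did so in the hormone-sensing class. Intervals beside CPM values are exact Poisson 95% intervals. All intervals cover counting error only and leave out the spread between animals, and those on reads also leave out the spread between cells. PCR copies of a molecule could not be told apart, so intervals on reads can be too narrow even for the counting of molecules. A level is called higher or lower when it differs by 1.5 times or more on the scale of log2(CPM + 1), which describes size and is no test. In a summed class, fewer cells with a transcript and fewer transcripts per cell cannot be told apart, so cells with a read are given beside the level. A count of 0 allows up to 3 reads, which is 0.145 CPM in control and 1.08 CPM in N1ICD-EGFP hormone-sensing cells, and 0.569 and 0.176 CPM in immune-like cells.

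The carriers were spread unevenly over the 3 classes (heat map of carriers by class and plate). On the scale of CPM per kilobase of exon, on which genes can be compared, the heavy chain Slc3a2 led the luminal class of both plates, at 285.98 (control) and 371.99 (N1ICD-EGFP). In the control the alanine, serine and cysteine carrier Slc1a4 (43.9), the system A carrier Slc38a2 (30.3) and the glutamine carrier Slc1a5 (17.6) came next. In control hormone-sensing cells the cationic amino acid carrier Slc7a2 led at 187.9, ahead of Slc3a2 at 93.4 and Slc38a2 at 69.2. Slc38a2 led the control immune-like class (110.9) and Slc1a5 that of N1ICD-EGFP (81.3).

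**Figure D1:**
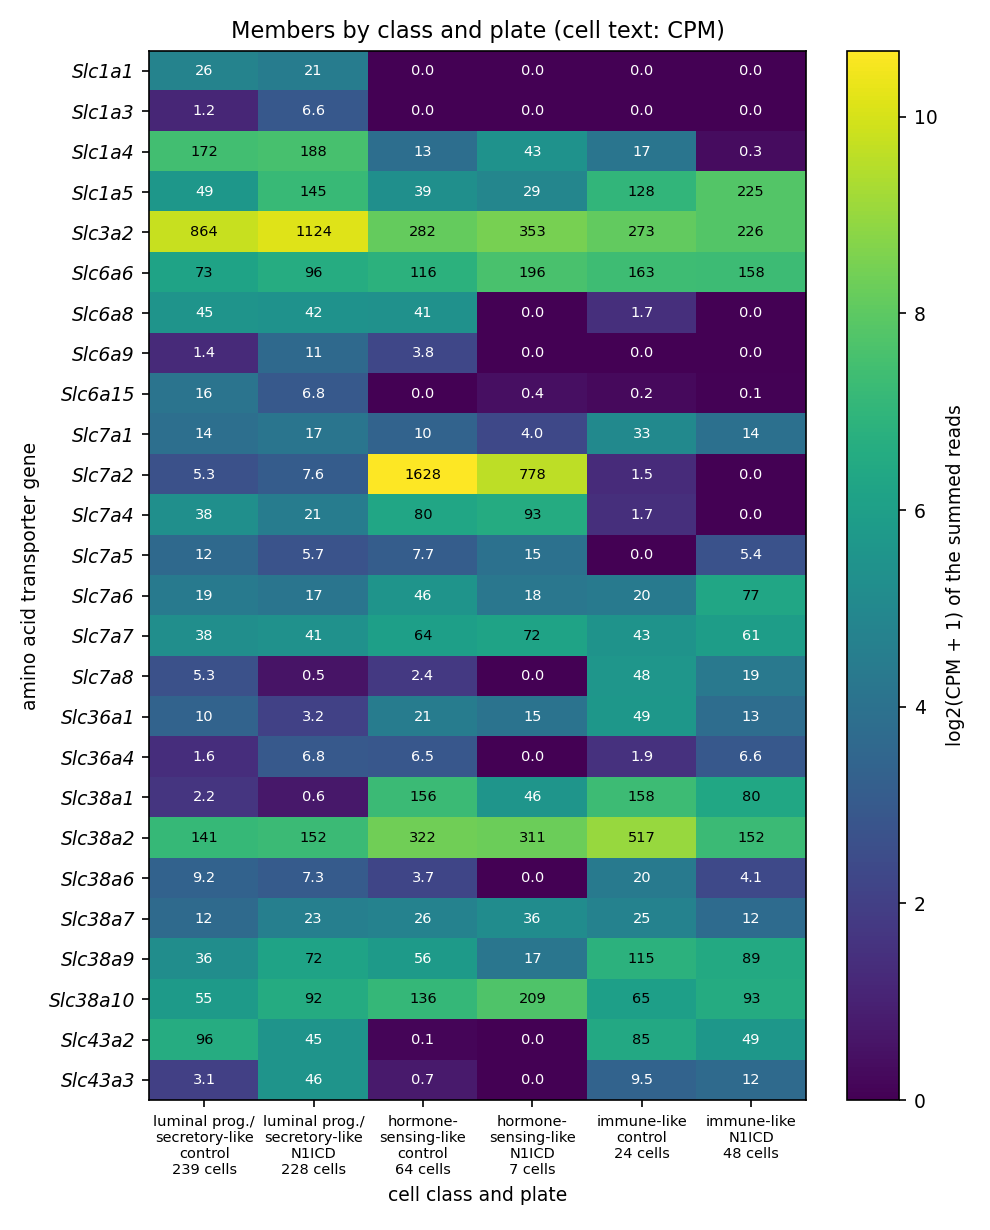
Each row is 1 of the 26 carriers at 5 CPM or more and each column a cell class in 1 plate; colour is log2(CPM + 1) of the summed reads and the printed number is the CPM. Slc7a2 stands at 1628 and 778 CPM in the hormone-sensing columns and below 10 CPM in the others, while Slc1a4 and Slc3a2 are highest in the luminal columns.

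Promoter sequence is shown for 3 carriers that were lower in hormone-sensing than in luminal cells of the control, Slc1a4, Slc43a2 and Slc3a2. Each run is a 300-base RefSeq window of assembly GRCm38.p6, from 250 bases before to 50 after an annotated start, written 5′ to 3′ on the gene's strand. The window of Slc1a4 is chr11:20332664-20332963 (minus strand), the more upstream of 2 windows of Slc43a2 is chr11:75531444-75531743 (plus strand) and that of Slc3a2 is chr19:8713848-8714147 (minus strand). Capitals mark a match to TGATGNAA, a response element bound by C/EBP and ATF factors under amino acid shortage.
Slc1a4: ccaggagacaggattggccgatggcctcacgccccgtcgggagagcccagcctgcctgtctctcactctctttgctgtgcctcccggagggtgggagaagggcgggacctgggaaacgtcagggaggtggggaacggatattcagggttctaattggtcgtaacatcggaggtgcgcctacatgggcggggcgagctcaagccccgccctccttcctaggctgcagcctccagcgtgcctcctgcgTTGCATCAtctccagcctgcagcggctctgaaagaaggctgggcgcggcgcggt
Slc43a2: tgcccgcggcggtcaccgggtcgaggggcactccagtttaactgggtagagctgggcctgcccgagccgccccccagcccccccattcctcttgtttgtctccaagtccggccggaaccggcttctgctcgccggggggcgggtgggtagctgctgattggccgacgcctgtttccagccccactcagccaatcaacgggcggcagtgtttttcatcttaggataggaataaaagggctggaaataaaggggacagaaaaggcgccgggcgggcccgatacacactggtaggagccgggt
Slc3a2: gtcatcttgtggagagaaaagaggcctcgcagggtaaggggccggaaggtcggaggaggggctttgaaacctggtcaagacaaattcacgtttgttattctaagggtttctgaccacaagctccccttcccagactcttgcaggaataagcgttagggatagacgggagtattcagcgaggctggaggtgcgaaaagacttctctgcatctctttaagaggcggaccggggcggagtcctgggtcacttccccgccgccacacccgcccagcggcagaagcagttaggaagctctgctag

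The match in Slc1a4 lies on the opposite strand and spans the start: in the printed window it begins 4 bases before the start and runs past it. RefSeq windows were found for 17 of the 26 carriers, 26 windows in all, and those of 1 gene can overlap and share a match. Slc1a4 and Slc7a7 were the 2 with TGATGNAA on either strand, in 3 of the 26 windows, beside 3.97% of all 32851 windows. The STAT5 motif TTCNNNGAA, which reads alike on both strands, was in 3 of the 26 windows, of Slc1a3, Slc38a9 and Slc7a1, beside 8.30% of all windows. The RBPJ motif GTGGGAA, bound by the DNA-binding partner of the Notch1 intracellular part, was in none of these windows on either strand, beside 6.38% of all windows. The 3 motifs were searched separately, so matches may share bases, and a match describes letters only.

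Hormone-sensing cells held a different set of carriers from the other luminal cells. In the control plate 12 of 23 measured carriers were higher than in the luminal class, beside 26.4% of the 11313 genes measured, and 7 were lower, beside 29.9%. The carriers' median log2 ratio was 0.60, against -0.02 for all genes. Hormone-sensing cells also had more genes per cell, with medians of 4460.0 and 2968 in cells thinned to 50000 reads, and the part of this in the ratios was not tested. The median was -0.47 when carriers down to 1 CPM were counted, and -0.23 without cells of unusually many genes, which may be doublets.

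Slc7a2 (chromosome 8, 40862396 to 40922308, GRCm38; protein-coding), which imports arginine and lysine, had the largest value. In the control it stood at 1628 CPM (1611 to 1645) in hormone-sensing cells, 5.32 CPM (4.72 to 5.98) in luminal cells and 1.52 CPM (0.655 to 2.99) in immune-like cells. It was 306.1-fold higher (272.2 to 345.3) in hormone-sensing than in luminal cells. A read was found in 64 of 64 control and 7 of 7 N1ICD-EGFP hormone-sensing cells, against 43 and 9 luminal cells (17.99% and 3.95%). In the N1ICD-EGFP plate the levels were 778 CPM (746 to 812) in hormone-sensing cells, 38.9% of it from 1 cell, and 7.64 CPM (7.03 to 8.28) in luminal cells. Both plates thus had the same order of classes.

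Slc38a1, a sodium-coupled glutamine carrier, was also high in hormone-sensing cells. In the control it stood at 155.8 CPM (150.4 to 161.2) there and 2.17 CPM (1.79 to 2.60) in luminal cells, 71.8-fold higher (59.6 to 87.3), with a read in 51 of 64 hormone-sensing and 10 luminal cells. Unlike Slc7a2 it had a like level in control immune-like cells, 157.7 CPM (147.2 to 168.8) from 11 of 24 cells. N1ICD-EGFP cells had 46.1 CPM of it in hormone-sensing, 80.4 CPM in immune-like and 0.593 CPM in luminal cells.

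Most other Slc38 carriers were higher in control hormone-sensing cells by smaller amounts. Slc38a2, whose transcript is known to increase under amino acid shortage, stood at 322.4 CPM (314.7 to 330.3) against 141.2 CPM (138.01 to 144.4) in luminal cells, and was read in 63 of 64 hormone-sensing cells and 48.5% of luminal cells. Slc38a10 stood at 135.9 against 54.6 CPM. Slc38a7, a lysosomal glutamine carrier, stood at 25.5 against 11.7 CPM, and Slc38a9, the lysosomal arginine sensor upstream of mTORC1, at 55.6 against 36.3 CPM. The log2 ratio of Slc38a9, 0.60, was under 1.5 times in 5 of 18 other ways of processing, and was 0.32 in thinned cells. Here and in like counts below, these ways include the looser filter on cells and the changed filters on members. Those settings could not change the ratio of a carrier between class sums. Slc38a6 was lower, at 3.73 against 9.20 CPM. In the N1ICD-EGFP plate Slc38a2 (311.3 against 152.5 CPM), Slc38a10 (208.96 against 92.3 CPM) and Slc38a7 (35.7 against 23.1 CPM) had the same order, while Slc38a9 had the opposite one, 17.3 CPM from 1 of 7 cells against 71.6 CPM.

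Members of the Slc7, Slc36 and Slc6 families filled the rest of the higher group. Slc7a4, a relative of the cationic carriers with no firmly known substrate, stood at 79.5 against 38.4 CPM and was read in 41 of 64 hormone-sensing and 44 luminal cells. The light chains Slc7a6 (45.6 against 19.3 CPM) and Slc7a7 (63.7 against 38.02 CPM), which exchange cationic for neutral amino acids, were higher too. Without possible doublets the log2 ratio of Slc7a6 went from 1.199 to -0.23, and Slc7a4 and Slc7a7 were under 1.5 times. The proton-coupled carriers Slc36a1 (21.01 against 9.64 CPM) and Slc36a4 (6.54 against 1.60 CPM) and the taurine carrier Slc6a6 (115.7 against 72.7 CPM) were the other higher ones. Slc6a6 was under 1.5 times in thinned cells, Slc7a7 in well columns 1 to 12, and Slc7a4, Slc36a1, Slc38a7 and Slc6a6 in well columns 13 to 24. In the N1ICD-EGFP plate the 7 hormone-sensing cells are set beside luminal cells without a call. Slc36a4 had no read in the 7 cells against 6.82 CPM in luminal cells, and Slc7a6 stood at 17.7 against 16.8 CPM. Slc7a4 stood at 92.95 against 21.2 CPM, Slc7a7 at 72.1 against 41.3 CPM, Slc36a1 at 15.5 against 3.24 CPM and Slc6a6 at 195.6 against 95.7 CPM.

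Slc43a2, a sodium-independent carrier of large neutral amino acids, was nearly absent from the hormone-sensing reads. It had 2 reads in 2 of 64 control hormone-sensing cells (0.0968 CPM) and 5068 reads in 46.03% of luminal cells, 95.6 CPM (92.97 to 98.3). It was thus 987-fold lower (273.1 to 8153), a ratio that rests on 2 reads, and with cells classed by markers alone the log2 ratio was -3.28 instead of -6.46. Control immune-like cells had 84.8 CPM (77.1 to 93.1), with a read in 14 of 24 cells, and the 7 N1ICD-EGFP hormone-sensing cells had no read.

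The sodium-coupled glutamate and neutral carriers Slc1a1 and Slc1a4 were also lower in hormone-sensing cells. Slc1a4 stood at 172.3 CPM (168.7 to 175.8) in control luminal and 13.5 CPM (11.9 to 15.1) in control hormone-sensing cells, 12.8-fold lower (11.4 to 14.5), with a read in 90 luminal (37.7%) and 7 of 64 hormone-sensing cells. In the N1ICD-EGFP plate it stood at 187.6 CPM (184.6 to 190.7) in luminal cells and 42.9 CPM in hormone-sensing cells, all of the latter from 1 cell. The glutamate carrier Slc1a1 had 25.9 CPM in 31 control and 21.1 CPM in 15 N1ICD-EGFP luminal cells, and no read in hormone-sensing or immune-like cells of either plate. In the control it was at least 178.6-fold lower in hormone-sensing cells, with 3 counts over the group as the floor. An antisense gene overlaps 32% of the exon bases of Slc1a1, and no source used here says whether counting used strand.

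Slc3a2 was 3.06-fold lower (2.98 to 3.15) in control hormone-sensing cells (282.1 CPM) than in luminal cells, the best covered of the lower carriers. Slc6a15, a carrier of branched-chain amino acids and proline, had 16.4 CPM in 18 control luminal cells and no read in hormone-sensing cells, at least 113.1-fold lower. Slc7a8, a light chain for neutral amino acids, had 5.26 CPM in 5 luminal cells, 83.5% of it from 1 cell, against 2.37 CPM, and without the cell with the most reads in each class its log2 ratio went from -0.89 to 0.34. Slc1a5 (39.3 against 48.8 CPM), the creatine carrier Slc6a8 (41.5 against 45.2 CPM), the cationic carrier Slc7a1 (9.63 against 13.7 CPM) and the leucine-carrying light chain Slc7a5 (7.75 against 11.6 CPM) differed by less than 1.5 times. In other ways of processing Slc7a5 was past 1.5 times in 5 of 18, Slc6a8 in 3 and Slc1a5 in 2, and without possible doublets the log2 ratios were -3.59 for Slc7a5 and -1.10 for Slc6a8.

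**Figure D2:**
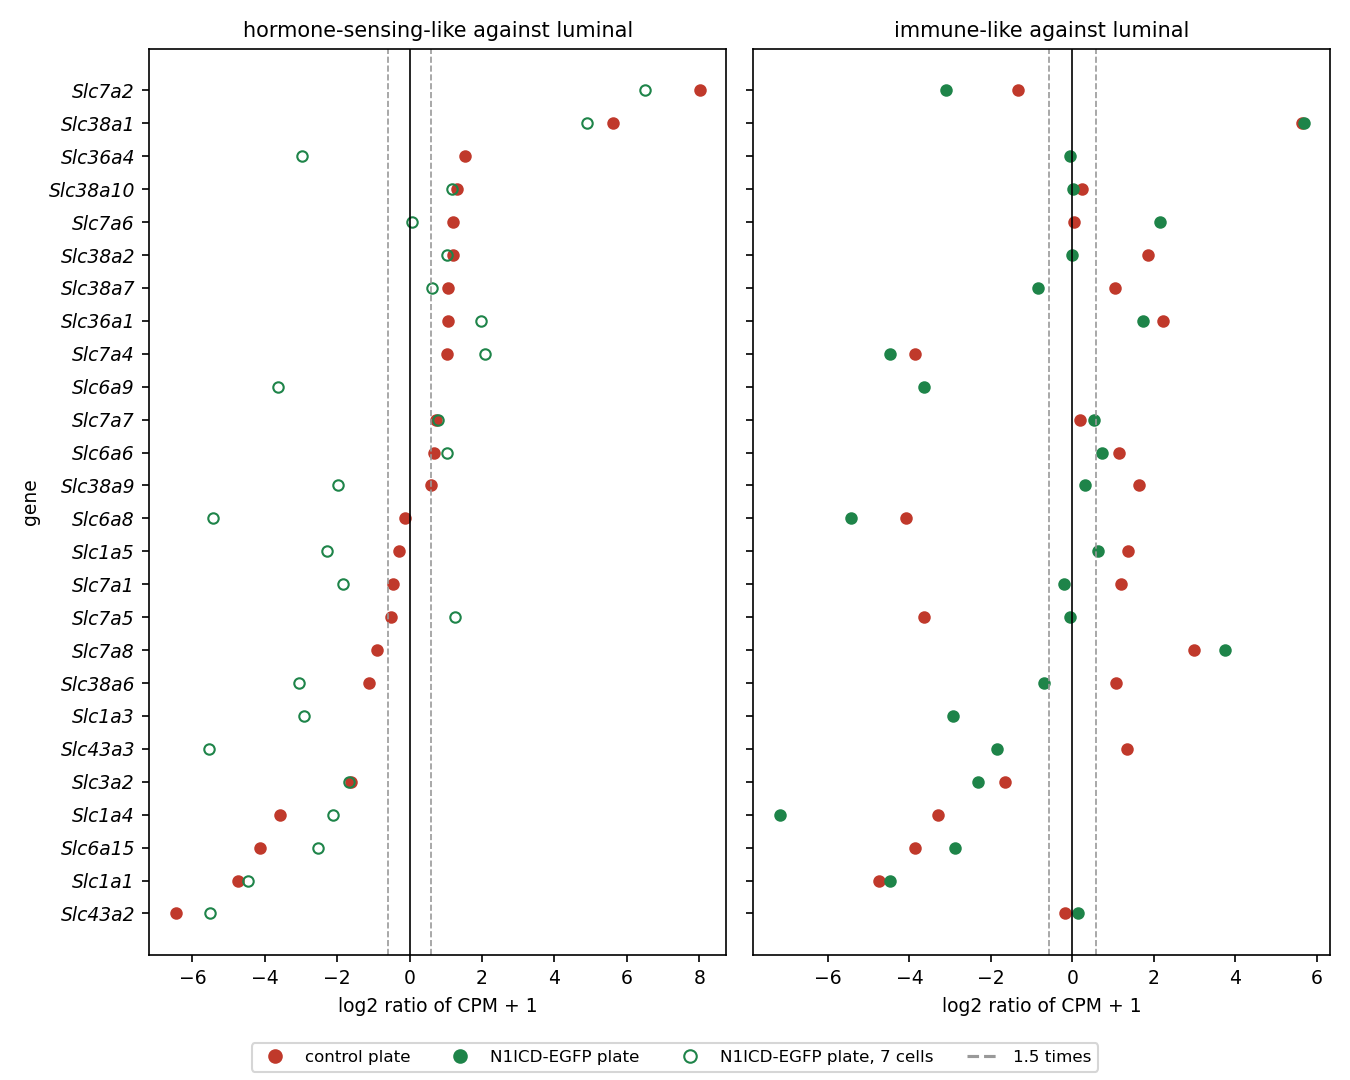
Points give the log2 ratio of CPM + 1 of hormone-sensing (left) and immune-like (right) cells against luminal cells within a plate, for carriers at 5 CPM or more in either class; dashed lines mark 1.5 times and open points rest on 7 cells. Slc7a2 lies at 8.01 and Slc43a2 at -6.46 for control hormone-sensing cells, and Slc38a1 at 5.65 and 5.68 for the immune-like cells of the 2 plates.

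Immune-like cells shared Slc38a1 with hormone-sensing cells and had little Slc1a4. In the control 11 of 23 measured carriers were higher than in luminal cells, beside 30.2% of 11908 genes, and 8 lower, beside 43.1%. In the N1ICD-EGFP plate 6 of 26 were higher, beside 27.6% of 12014 genes, and 12 lower, beside 44.8%. The median log2 ratios of the carriers were 0.24 and -0.13, against -0.28 and -0.36 for all genes. The filters were unlike: carriers had to reach 5 CPM in a plate sum as well, all genes only in a class compared. This left out Slc36a2, Slc1a2, Slc7a11, Slc7a10 and Slc38a5 in the control and Slc7a13 in the N1ICD-EGFP plate. All of these were higher in immune-like than in luminal cells, so the higher counts of carriers are low beside the shares. Luminal progenitor markers summed to 1565 CPM in control and 302.2 CPM in N1ICD-EGFP immune-like cells, and their part in these ratios was not tested.

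Slc38a1 was 72.7-fold higher (59.8 to 89.2) than in luminal cells in the control and 135.6-fold higher (101.1 to 186.1) in the N1ICD-EGFP plate. The light chain Slc7a8 stood at 48.2 CPM (5 of 24 cells) and 18.7 CPM (8 of 48 cells), 9.16-fold and 40.3-fold above luminal cells. The lysosomal proton-coupled carrier Slc36a1 stood at 48.8 and 13.2 CPM, from 3 of 24 and 7 of 48 cells, and its N1ICD-EGFP log2 ratio was -0.46 in well columns 13 to 24. Slc38a1 and Slc7a8 were thus higher than in luminal cells in both plates. Slc1a5 stood at 128.1 CPM (118.6 to 138.1) in 10 of 24 control cells, 49.3% of it from 1 cell, and at 224.6 CPM (217.5 to 231.8) in 24 of 48 N1ICD-EGFP cells; in both plates it was under 1.5 times without the top cells, and in N1ICD-EGFP well columns 13 to 24 its log2 ratio was -0.57. Slc6a6 stood at 163.2 and 157.97 CPM, under 1.5 times in thinned cells of both plates.

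Heavy chain Slc3a2 was lower in immune-like cells of both plates, at 273.5 CPM (259.5 to 287.96) and 226.2 CPM (219.2 to 233.5), 3.16-fold and 4.97-fold under luminal cells. Slc1a4 had 88 reads in the control, 98.9% of them in 1 cell, and 5 in the N1ICD-EGFP immune-like cells. The creatine carrier Slc6a8 had 9 reads in the control and none in the N1ICD-EGFP plate, and Slc7a4 9 and none. Slc7a2 stood at 1.52 CPM in the control and was not read in the N1ICD-EGFP immune-like cells.

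Some carriers had unlike levels in the 2 immune-like classes. Slc38a2 stood at 517 CPM (498 to 537) in the control and 152.2 CPM (146.4 to 158.2) in the N1ICD-EGFP class, 3.66-fold above luminal cells in the control and within 1.5 times of them in the other plate. Slc7a6 stood at 19.9 and 77.5 CPM, with 59.8% of the latter from 1 cell, and with a stricter filter on cells its N1ICD-EGFP log2 ratio was -0.94. Slc7a1 was 2.39-fold higher than in luminal cells of the control (32.8 CPM), but 61.8% of its reads came from 1 cell, and its log2 ratio was 0.14 without the top cells. Whether the immune-like cells of the plates differ was not tested.

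The N1ICD-EGFP immune-like cells fell into 3 clusters with unlike carriers. The cluster led by Retnla, Lyz2, C1qb and Ccl6 (19 cells) held Slc7a7 at 117.2 CPM (110.1 to 124.5), Slc7a8 at 36.2 CPM, Slc36a1 at 25.5 CPM and Slc43a2 at 82.8 CPM. Slc7a7, Slc7a8 and Slc36a1 had no read in the cluster led by Cd79a, Ms4a1 and Cd79b (21 cells), or in that led by Cd247, Lat and Ms4a4b (8 cells). Slc1a5 stood at 429 CPM (412 to 446) and 302.8 CPM (281.1 to 325.6) in the latter pair and at 68.4 CPM in the first cluster. Slc38a1 was read in all 3, at 60.1, 111.5 and 79.7 CPM in the order named. The 24 control immune-like cells formed 1 cluster, so no such split is given for that plate.

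Within the luminal class, 8 of 25 measured carriers were higher in N1ICD-EGFP than in control cells, beside 23.3% of 11398 genes, and 6 were lower, beside 15%. The carriers' median log2 ratio was 0.12, near the 0.13 of all genes. Marker lists moved between the same cells. The 10 luminal progenitor markers summed to 25523 CPM in the control and 9956 CPM in the N1ICD-EGFP cells, and the 10 secretory markers to 40938 and 15227 CPM. The 10 basal markers summed to 82.7 and 457 CPM, with 4 and 10 of 10 at 5 CPM or more, and the 15 immune markers to 32.1 and 76.8 CPM. All 6 fibroblast markers were at 5 CPM or more in both, summing to 648 and 577 CPM. No basal or immune marker was at 0, and the secretory markers Csn1s2b and Glycam1 were at 0 in the N1ICD-EGFP cells. Genes per thinned cell had medians of 2968 and 2087. The part of these in the ratios was not tested.

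**Figure D3:**
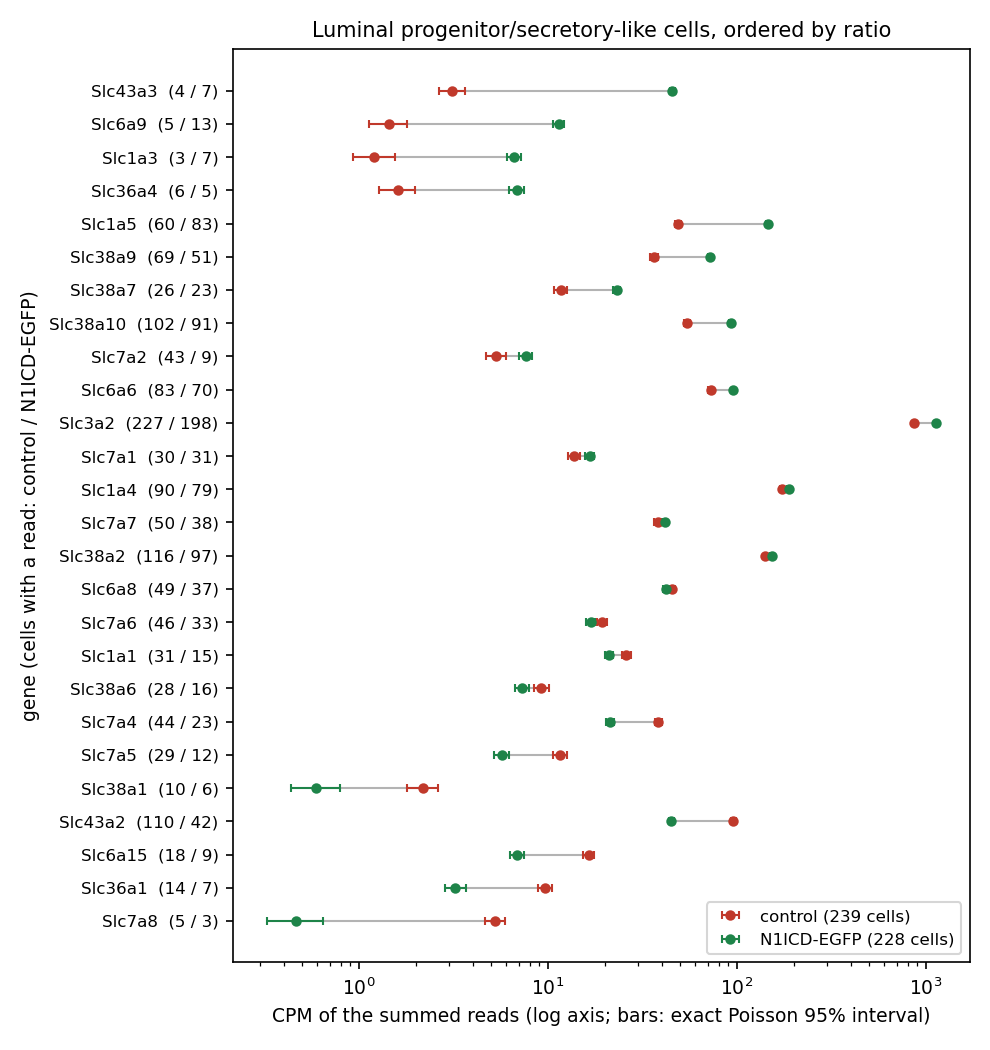
Each carrier's CPM in luminal progenitor/secretory-like cells of the control plate (red) and the N1ICD-EGFP plate (green) on a log axis, with exact Poisson 95% intervals, ordered by log2 ratio; numbers after each name count the cells with a read. The 4 carriers with the largest ratios, Slc43a3, Slc6a9, Slc1a3 and Slc36a4, were each read in 13 cells or fewer per plate, whereas Slc1a5 was read in 60 and 83.

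Of the higher carriers Slc1a5, the sodium-dependent glutamine carrier (chromosome 7, 16781340 to 16798274), rested on the most reads. It stood at 48.8 CPM (46.9 to 50.7) in control and 144.96 CPM (142.3 to 147.7) in N1ICD-EGFP luminal cells, 2.97-fold higher (2.85 to 3.10). It was read in 25.1% (19.7 to 31.1) of control and 36.4% (30.2 to 43.01) of N1ICD-EGFP cells, or 22.2% and 30.7% after thinning. Both the level and the share of cells were thus higher in the plate with fewer genes per cell. Over 5 N1ICD-EGFP luminal clusters it ranged from 80.6 to 289.5 CPM, and over 4 control clusters from 40.4 to 66.4 CPM. Its log2 ratio lay between 0.85 and 1.80 in 19 other ways of processing.

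For 3 Slc38 carriers the level was higher in the N1ICD-EGFP cells but the number of cells with a read was not. Slc38a9 stood at 36.3 CPM (34.7 to 37.97) in the control and 71.6 CPM (69.8 to 73.6) in the N1ICD-EGFP cells, with a read in 69 and 51. Slc38a10 stood at 54.6 CPM (52.6 to 56.6) and 92.3 CPM (90.2 to 94.5), read in 42.7% and 39.9% of cells. Slc38a7 stood at 11.7 CPM (10.8 to 12.7) and 23.1 CPM (22.004 to 24.2), read in 26 and 23 cells. These were differences of 1.97, 1.69 and 1.97 times. Slc38a9 was under 1.5 times in thinned cells (0.53 on the log2 scale) and in well columns 13 to 24 (0.33). Slc38a10 was under it in well columns 1 to 12 (0.39) and without the N1ICD-EGFP luminal cluster led by Nkd2, Mgat3 and Stra6, which includes collagen VI genes among its leading genes (63 cells; 0.53).

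The remaining 4 higher carriers came from a handful of cells. Slc43a3, best known as a carrier of purine bases, stood at 3.11 and 45.5 CPM, 14.6-fold higher, but was read in 4 control and 7 N1ICD-EGFP cells, with 49.97% of the latter reads in 1 cell, and was under 1.5 times when cells were classed by markers alone. The glycine carrier Slc6a9 stood at 1.43 CPM in 5 and 11.4 CPM in 13 cells, 7.94-fold higher (6.28 to 10.2), and shares 38.8% of its exon bases with the antisense gene Ccdc24. The glutamate carrier Slc1a3 stood at 1.21 and 6.603 CPM (3 and 7 cells), and its log2 ratio was -1.06 when cells were classed by markers alone. The proton-coupled carrier Slc36a4 stood at 1.60 and 6.82 CPM (6 and 5 cells, 64.7% of the latter from 1), and without the collagen VI cluster its log2 ratio went from 1.59 to -0.76.

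Slc43a2 was the best covered of the lower carriers. It stood at 95.6 CPM (92.97 to 98.3) in control and 44.9 CPM (43.4 to 46.4) in N1ICD-EGFP luminal cells, 2.13-fold lower (2.04 to 2.22). The share of cells with a read was 46.03% (39.6 to 52.6) and 18.4% (13.6 to 24.1), or 39.3% and 14.04% after thinning. Level and share were thus both lower. Control clusters ranged from 78.3 to 123.2 CPM and N1ICD-EGFP clusters from 4.57 to 119.002 CPM. The N1ICD-EGFP cluster led by Chil1, Crispld2 and Lrrc32 lay within the control range, and the other 4 lay below it.

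Slc7a4 stood at 38.4 CPM in 44 control and 21.2 CPM in 23 N1ICD-EGFP cells, 1.81-fold lower. Slc7a5, the leucine-carrying light chain, stood at 11.6 CPM in 29 and 5.67 CPM in 12 cells, 2.04-fold lower. Slc7a4 was under 1.5 times with a stricter filter on cells, Slc7a5 without the collagen VI cluster and at a clustering resolution of 0.5, and both in well columns 1 to 12. Slc6a15 stood at 16.4 and 6.84 CPM (18 and 9 cells), Slc36a1 at 9.64 and 3.24 CPM (14 and 7 cells) and Slc7a8 at 5.26 and 0.464 CPM (5 and 3 cells). A single cell gave 60.8% of the N1ICD-EGFP reads of Slc6a15 and 63.7% of those of Slc36a1, and the log2 ratio of Slc7a8 was 0.25 when cells were classed by markers alone.

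The luminal carriers with the highest CPM in both plates, Slc3a2, Slc1a4 and Slc38a2, lay within 1.5 times between plates, as did several others. Slc1a5, Slc43a2 and Slc38a10 were abundant too and differed by more, as given above. Slc3a2 stood at 864 CPM (856 to 872) and 1124 CPM (1117 to 1132), a log2 ratio of 0.38, while the share of cells with a read was 94.98% and 86.8%, or 93.7% and 82.02% after thinning. Slc1a4 stood at 172.3 and 187.6 CPM, Slc38a2 at 141.2 and 152.5 CPM, Slc6a6 at 72.7 and 95.7 CPM, Slc6a8 at 45.2 and 41.9 CPM and Slc7a7 at 38.02 and 41.3 CPM. The sodium-coupled and light-chain carriers Slc1a1 (25.9 and 21.1 CPM), Slc7a6 (19.3 and 16.8 CPM) and Slc38a6 (9.20 and 7.27 CPM) and the cationic carriers Slc7a1 (13.7 and 16.6 CPM) and Slc7a2 also lay within 1.5 times. For Slc7a2 this held in 10 of 19 other ways of processing, with log2 ratios from -1.76 (cells classed by markers alone) to 0.87 (stricter filter on cells). The 10 include the looser filter on cells and the changed filters on members, which could not change this ratio. Slc1a1 was past 1.5 times in 4 of the 19, Slc7a1 and Slc7a6 in 3 each, Slc38a6 and Slc6a6 in 2 each and Slc7a7 in 1, and Slc3a2, Slc1a4, Slc38a2 and Slc6a8 in none. Slc38a1 was under 5 CPM in both.

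Slc1a4 was uneven among N1ICD-EGFP luminal cells despite its like total. Its 4 control clusters ranged from 157.4 to 196.9 CPM. The N1ICD-EGFP clusters ran from 37.1 CPM (33.9 to 40.5) in that led by Gsn and Tfap2a, read in 7 of 49 cells, to 315.7 CPM (306.7 to 324.7) in that led by Ltf, Ift88 and Maged2, read in 21 of 35 cells. The same Gsn-led cluster held the highest Slc1a5 level, 289.5 CPM (280.4 to 298.8) in 15 of 49 cells. Clusters of 1 plate are not replicates, and these values describe that plate.

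**Figure D4:**
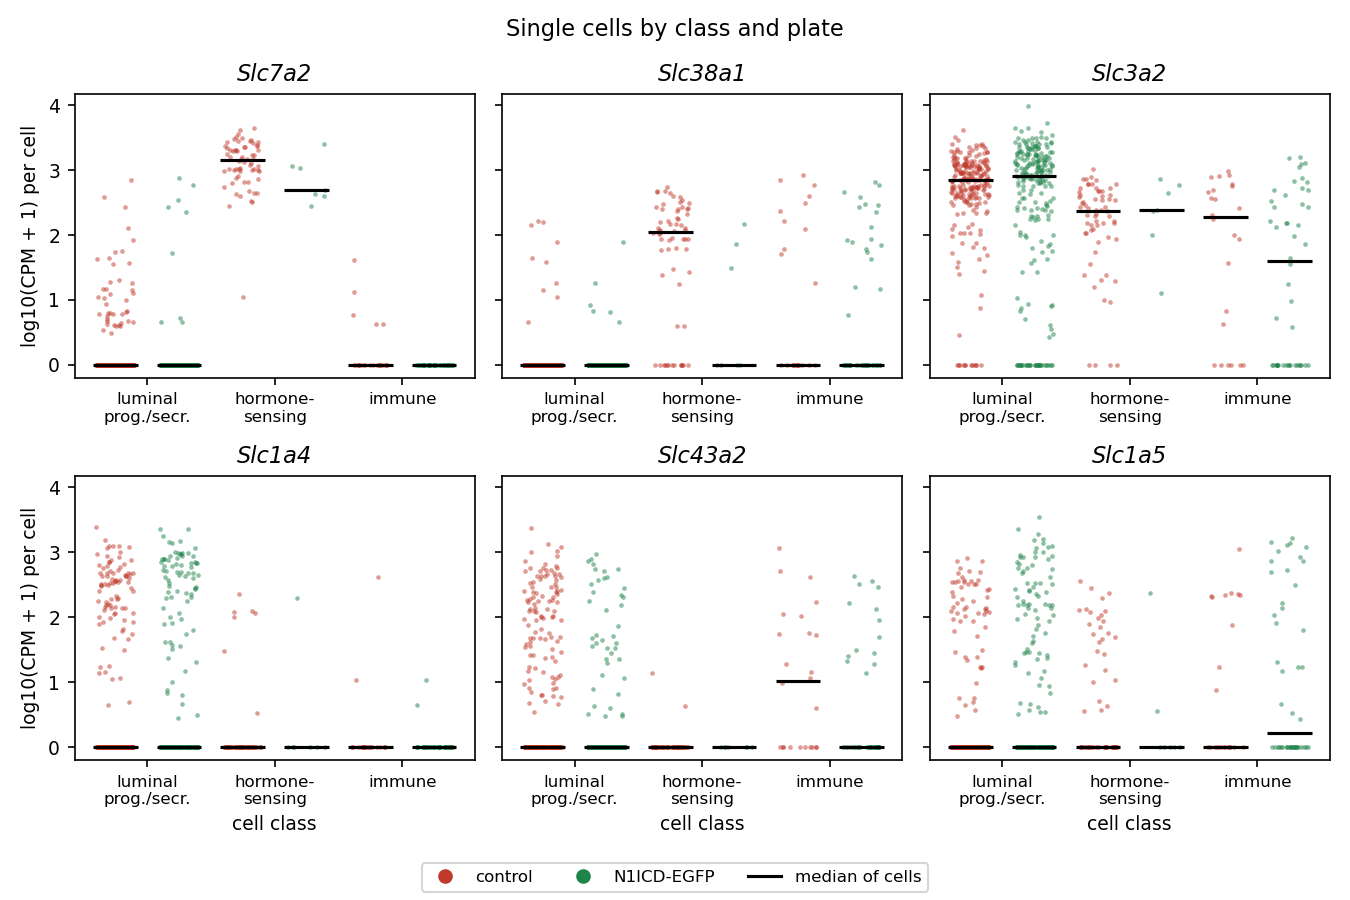
Each point is 1 cell; the vertical axis is log10(CPM + 1) per cell, columns are the 3 classes with the control plate in red and the N1ICD-EGFP plate in green, and bars mark the median of cells. Slc7a2 has a read in all hormone-sensing cells of both plates, while most cells in each column have no read of Slc1a4, so its median is 0 although its summed luminal levels are 172.3 and 187.6 CPM.

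Slc3a2 was the main heavy chain transcript, since Slc3a1 stood at 1.35 and 1.06 CPM over all control and N1ICD-EGFP cells, read in 9 and 4 cells. Per kilobase of exon, the level of Slc3a2 was 11.6 times the sum of the light chains Slc7a5, Slc7a6, Slc7a7, Slc7a8, Slc7a10 and Slc7a11 in control and 16.2 times in N1ICD-EGFP luminal cells. In control hormone-sensing cells it was 2.38 times, and in immune-like cells 2.36 (control) and 1.502 times (N1ICD-EGFP). The heavy chain thus exceeded its light chains most in the luminal class. Slc7a7 was the highest light chain per kilobase in each of these groups.

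Over all kept cells, 5 of 26 carriers were higher in the N1ICD-EGFP plate, beside 22.5% of 12021 genes, and 8 were lower, beside 16.7%; the median log2 ratio was -0.0037, and that of all genes 0.07. Slc7a2 stood at 421 CPM (416 to 425) in the control and 28.3 CPM (27.2 to 29.3) in the N1ICD-EGFP plate, 14.9-fold lower (14.3 to 15.5), with a read in 34.1% and 5.65% of cells. Slc38a1 stood at 51.4 and 15.9 CPM, 3.24-fold lower, and Slc7a4 at 45.6 and 19.5 CPM, 2.33-fold lower. All 3 were higher in hormone-sensing than in other luminal cells of the control, and that class held 64 and 7 cells. Of 34049 control reads of Slc7a2, 33623 lay in those 64 cells. Levels within a class differed between plates too. Control and N1ICD-EGFP hormone-sensing cells had 1628 and 778 CPM of Slc7a2, 155.8 and 46.1 of Slc38a1, and 79.5 and 92.95 of Slc7a4. Luminal cells had 5.32 and 7.64 CPM of Slc7a2, 2.17 and 0.593 of Slc38a1, and 38.4 and 21.2 of Slc7a4. The part of class sizes in the plate levels was not tested.

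The other lower carriers over all cells were Slc36a1 (14.8 and 5.33 CPM), Slc7a8 (7.19 and 3.65 CPM), Slc6a15 (10.8 and 5.47 CPM), Slc7a5 (9.66 and 5.89 CPM) and Slc43a2 (68.99 and 44.4 CPM). The higher ones were Slc1a3 (0.791 and 5.26 CPM), Slc6a9 (2.73 and 9.07 CPM), Slc1a5 (51.7 and 155.6 CPM, 3.01-fold), Slc43a3 (16.3 and 38.3 CPM) and Slc36a4 (2.84 and 6.58 CPM). By family, the summed Slc7 level was 578 CPM (control) and 156.1 CPM (N1ICD-EGFP), and the Slc1 level 192.2 and 329.8 CPM. Within the luminal class Slc7 was below Slc1 in both plates, at 140.8 against 250.9 CPM in control and 118.6 against 362.1 CPM in N1ICD-EGFP cells.

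The other 33 genes stayed under 5 CPM in the sums of both plates, with a maximum of 3.83 CPM for the cystine carrier Slc7a11 in the control, and each had at least 1 read in a kept cell. Among them were Slc1a2, Slc1a6, Slc1a7, Slc3a1, Slc6a2 to Slc6a5, Slc6a7, Slc6a11 to Slc6a14, Slc6a17 to Slc6a19, Slc7a3, Slc7a9 to Slc7a15, Slc36a2, Slc36a3, Slc38a3, Slc38a4, Slc38a5, Slc38a8, Slc38a11 and Slc43a1. A few passed 5 CPM within a class, each from 4 cells or fewer: Slc36a2 (25.8 CPM), Slc1a2 (15.4 CPM), Slc7a11 (14.4 CPM), Slc7a10 (6.83 CPM) and Slc38a5 (6.07 CPM) in control immune-like cells, Slc7a13 (15.8 CPM) in N1ICD-EGFP immune-like cells, and Slc3a1 (5.04 CPM) in N1ICD-EGFP hormone-sensing cells.

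Of the wider amino acid machinery, 4 lists were followed. In luminal cells, 3 of 12 measured other carriers and partners were higher in the N1ICD-EGFP plate and 4 lower (median log2 ratio 0.20). The mitochondrial branched-chain carrier Slc25a44 stood at 11.9 and 29.03 CPM in the control and N1ICD-EGFP cells, the monocarboxylate carrier Slc5a8 at 414 and 151.6 CPM, and the aspartate-glutamate carrier Slc25a12 at 63.1 and 26.97 CPM. The list of the amino acid response and serine synthesis is called the Atf4 list here, and holds the factor Atf4 itself and Eif2ak4 beside targets of Atf4. Of its 21 measured genes 2 were higher and 5 lower (median 0.11), and asparagine synthetase, Asns, stood at 57.5 and 26.2 CPM. Of 28 genes of amino acid sensing upstream of mTORC1, 1 was higher and 6 lower (median -0.15), with Wdr24 at 34.8 and 57.8 CPM and Fnip1 at 42.7 and 17.8 CPM. Of 23 genes of amino acid metabolism, 6 were higher and 6 lower (median 0.23). These counts stand beside the 23.3% and 15% of all genes given above.

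Between hormone-sensing and luminal cells of the control, 13 of 27 metabolism genes were higher and 4 lower (median 0.52), beside 26.4% and 29.9% of all genes. The tryptophan-degrading enzyme Ido1 stood at 2999 against 6.47 CPM and the cysteine dioxygenase Cdo1 at 1546 against 3.17 CPM. In the Atf4 list 10 of 25 were higher and 7 lower (median 0.25), with the secreted stanniocalcin Stc2 at 465 against 2.24 CPM, the serine synthesis enzyme Psat1 at 47.3 against 5.71 CPM and the transcription factor Cebpb at 13.7 against 269.3 CPM. Among other carriers 3 of 14 were higher and 2 lower (median 0.14), with Slc5a8 at 4.45 against 414 CPM and the peptide carrier Slc15a2 at 9.97 against 120.2 CPM. In the sensing list 6 of 28 were higher and 8 lower (median -0.07). The counts of the last 2 lists, and the lower count of the Atf4 list, lay near or under the shares of all genes, and nothing is read from them.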

How the data were processed

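The authors deposited raw read counts per gene and well for 2 plates of 384 wells, per the labels from Smart-Seq2 libraries; STAR and mm10 are named per the submitters' processing notes. Not given in the sources used here are the counting tool, its annotation and whether it used strand. Of 24490 rows, 492 with repeated names were added to the row of that name and 1 reporter row was set apart. Cells with at least 50000 reads and 1000 genes were kept.

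Each plate was clustered without the member genes on log-transformed counts scaled to each cell's total, on a smaller scale than CPM (scanpy 1.11.5, 2000 variable genes, 15 principal components, 15 neighbours, Leiden resolution 0.8). Each cluster took the name of the class with the most marker genes raised in it, if at least 3 were. The luminal progenitor and secretory lists, of 10 genes each, were pooled as 1 class, so that class had more markers than any other. Ties, more leading markers of another class, or low depth without a leading marker of its own would have left a cluster unnamed. Reads were summed by plate and class, scaled to CPM, and compared as log2(CPM + 1), with calls at 1.5 times and at least 5 CPM. The 5 CPM had to be reached in either sum compared, and for members also in a plate sum. Classes under 20 cells were given without calls. Exon lengths are from GENCODE vM21. Alternatives covered filters, scaling, pseudocount, thinning, well columns, possible doublets and clustering. With 1 sample per group no test was possible. No doublet caller was run. Only the ratio step was tested on simulated cells with known fold changes. That test did not cover clustering, the naming of classes or the counts of members.

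All 26 members at 5 CPM or more were named, with more detail for those past 1.5 times between plates, past 4 times between classes, the heavy chains and the highest of each family; of each list the 2 highest and 2 lowest ratios at 20 CPM or more could be named. The members, the lists and the markers were chosen with earlier results of these data known. Some items are not reported here by name.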

Additional observations from a re-analysis of the deposited data

Results flagged for a closer look

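For 3 carriers the ratio of immune-like to luminal cells passed 1.5 times in opposite directions in the 2 plates, and the difference between plates was not tested. Slc38a6 had log2 ratios of 1.06 (control) and -0.70 (N1ICD-EGFP), with immune-like reads from 3 of 24 and 3 of 48 cells, 80.4% and 77.1% of them from 1 cell, and the control ratio was -0.71 without the top cells. The lysosomal glutamine carrier Slc38a7 had 1.05 and -0.84, with reads in 6 of 24 and 5 of 48 immune-like cells. Slc43a3 had 1.35 and -1.86, with reads in 2 of 24 and 3 of 48 immune-like cells and in 4 control and 7 N1ICD-EGFP luminal cells.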

How the results depend on the processing

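Each comparison was repeated in 15 to 19 other ways, up to 2 of them chosen after seeing the data (leaving out the N1ICD-EGFP luminal cluster led by collagen VI genes, and leaving out the cell with the most reads of each member). Counts of members past 1.5 times that moved by over 1.5 times were these. Over all cells, against 5 higher and 8 lower, the lower count was 13 with averaged single-cell CPM, with thinning and with members at 1 CPM or more, 5 with a pseudocount of 5 and 16 with no filter on members; the higher count was 8 with members at 1 CPM or more and with no filter, 10 in well columns 13 to 24, and 3 without the top cells. In luminal progenitor/secretory-like cells, against 8 and 6, the lower count was 11 at 1 CPM and 17 with no filter, and the higher count 13 with no filter. Between hormone-sensing and luminal cells of the control the lower count, 7, was 16 and 25 under the same settings. Between immune-like and luminal cells of the control the lower count, 8, was 15 and 24, and the higher count, 11, was 17 with no filter and 7 without the top cells; in the N1ICD-EGFP plate the lower count, 12, was 24 with no filter and the higher count, 6, was 11 with cells classed by markers alone.

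Some log2 ratios changed sign, and the cause was not tested. Over all cells Slc7a5 was 0.54 and Slc43a3 -0.66 in well columns 1 to 12, Slc7a8 1.15 in columns 13 to 24 and Slc36a4 -0.42 without the collagen VI cluster. In luminal cells Slc36a4 was -1.06 at resolution 0.5, -1.36 with marker classes and -0.76 without the collagen VI cluster, and with marker classes Slc1a3 was -1.06 and Slc7a8 0.25. Hormone-sensing against luminal, Slc7a8 was 0.075 in columns 13 to 24, 1.38 with marker classes and 0.34 without the top cells, Slc7a6 -0.23 without possible doublets, and the members' median -0.47 at 1 CPM, -0.36 with no filter and -0.23 without possible doublets. Immune-like against luminal in the N1ICD-EGFP plate, Slc1a5 was -0.13 with the stricter filter and -0.57 in columns 13 to 24, Slc7a6 -0.94 with the stricter filter and -1.43 in columns 1 to 12, Slc36a1 -0.46 in columns 13 to 24, and with marker classes Slc1a3 was 2.98 and Slc43a3 3.51; in the control Slc38a6 was -0.71 without the top cells.

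Past 1.5 times under every alternative were 6 of 13 members over all cells (Slc1a3, Slc1a5, Slc36a1, Slc38a1, Slc7a2 and Slc7a4), 6 of 14 in luminal cells (Slc1a5, Slc36a1, Slc38a7, Slc43a2, Slc6a15 and Slc6a9), 11 of 19 between hormone-sensing and luminal cells, and 13 of 19 and 9 of 18 between immune-like and luminal cells of the control and N1ICD-EGFP plates. The control immune-like class had too few cells for the stricter filter and the well columns. No clusters were unnamed, and the looser filter adds no cell to a class, so these alternatives leave the class values as given. Counting members at 1 CPM or more, or with no filter, changes which members are counted but not the ratio of any member. Tallies of alternatives for single members include these settings, so they overstate how many ways could have moved a ratio. No paired analysis was possible because each group is 1 plate.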

Other observations

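The 7 basal-like cells of the control plate, which entered no comparison between classes, held Slc38a2 at 610.1 CPM (576 to 645, 7 of 7 cells), Slc43a3 at 543 CPM (511 to 576, 6 of 7 cells) and Slc38a9 at 187.1 CPM (168.6 to 206.99, 5 of 7 cells). Slc3a2 stood at 1368 CPM and Slc6a6 at 414 CPM there. The N1ICD-EGFP plate had no basal-like cluster.

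Single genes of the 4 lists had large ratios between immune-like and luminal cells. The lysosomal peptide carrier Slc15a3 stood at 59.8 against 0.113 CPM in the control, with the luminal level second, and at 28.1 against 0 CPM in the N1ICD-EGFP plate. The vesicular nucleotide carrier Slc17a9 stood at 22.4 against 0.453 CPM and 124.98 against 1.37 CPM, Psat1 at 56.6 against 5.71 CPM and 80.4 against 6.85 CPM, and the creatine synthesis enzyme Gatm at 47.6 against 0.509 CPM and 37.6 against 0.516 CPM. Asns was lower, at 6.07 against 57.5 CPM and 0 against 26.2 CPM. In the control 6 of 15 other carriers, 7 of 23 Atf4-list genes, 8 of 29 sensing genes and 8 of 26 metabolism genes were higher, and 6, 9, 10 and 12 lower, beside 30.2% and 43.1% of all genes. In the N1ICD-EGFP plate 10 of 16 other carriers, 6 of 23 Atf4-list genes, 9 of 26 sensing genes and 7 of 25 metabolism genes were higher, and 6, 8, 6 and 14 lower, beside 27.6% and 44.8%. Most of these counts lay near the shares of all genes, and nothing is read from them about the lists.

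Over all cells of the N1ICD-EGFP plate against the control, 4 of 15 other carriers, 3 of 24 Atf4-list genes, 3 of 29 sensing genes and 5 of 27 metabolism genes were higher, and 5, 5, 5 and 9 lower, beside 22.5% and 16.7% of all genes, and nothing is read from these counts. The lowest metabolism genes were Ido1 (769.6 and 53.7 CPM in control and N1ICD-EGFP cells) and Cdo1 (398 and 50.1 CPM), both high in the hormone-sensing class.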
